A study of Rattus norvegicus with 6 samples.

Results

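The respiratory chain subunits were followed by complex and by genome in the vestibular sensory epithelium of rats given the aminoglycoside streptomycin. Members were chosen by name, as every row annotated as protein-coding whose symbol matches the subunit names of complex I (the Nduf genes), II (Sdha to Sdhd), III (the Uqcr genes and Cyc1), IV (the Cox genes from Cox4 to Cox8) or V (the Atp5 genes), or those of a mitochondrially encoded mRNA (the Mt- genes). This gave 103 of the 32883 genes in the table, 90 encoded in the nucleus and 13 in the mitochondrial genome. Of these, 96 had a mean normalised count (the count divided by the library's size factor) of at least 10, namely 83 nuclear members and all 13 mitochondrial ones. Ndufa4 and its paralogue Ndufa4l2 were placed with complex IV, where the protein NDUFA4 is now assigned. The names also take in rows not classed here as structural subunits. These are Atp5if1 and Atp5s, classed as regulators of complex V, and Cox7a2l, Cox7a2l2, Ndufa4l2 and Cox6c-ps1, classed as related to complex IV. They stay in the counts of members. Ndufab1, an acyl carrier protein that the rule does not match, and Ndufs6, whose row was annotated as a processed pseudogene, were not members.

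Long-Evans rats were injected subcutaneously, daily for 6 weeks from postnatal day 21, with streptomycin at 500 mg/kg in PBS (STREP, n = 3) or with PBS (Control, n = 3). Replicates 1 and 2 of each group were males and replicate 3 was a female. The sample names of the 2 STREP males share a number, which no other names share, and the labels do not say what it marks. RNA of each animal came from both utricles and 6 cristae together, so that hair cells (HCs), supporting cells and the tissue around them were read as a mixture. It was sequenced after oligo-dT priming and amplification of the cDNA, without molecular identifiers.

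Complexes I to IV pass electrons from NADH and succinate to oxygen, and complexes I, III and IV pump protons that complex V, the ATP synthase, uses to make ATP. Complex II is built from nuclear genes only, while the other complexes combine nuclear subunits with subunits that are transcribed and translated inside the mitochondrion. HCs depend on mitochondrial ATP for ion transport and transmission, and aminoglycosides act on the bacterial ribosome, a relative of the mitochondrial one.

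Library totals were 48568191 to 59906048 counts in Control and 29333584 to 33744909 in STREP animals, so depth separated the groups. A total of 3 counts, the floor used here for detection, corresponded to 0.0501 to 0.102 CPM (counts scaled to library size). HC markers were lower in STREP animals: 5 of 10 had an adjusted p under 0.05 and 3 of these also changed over 1.5-fold, with a summed level of 89723 to 98157 normalised counts in Control and 68481 to 82140.0 in STREP. None of the 10 was at 0. Supporting cell markers summed to 492886 to 623083 in Control and 568185 to 993245 in STREP, with 0 of 8 past the test. Of the other lists, Sox10 of 5 Schwann cell markers was called higher while the summed level ran from 213115 to 294388 in Control and from 116870.4 to 241453 in STREP. Tubb3 of 6 neuronal markers was called higher with overlapping sums (4137 to 4648 and 4022 to 4313), and Slc12a2 of 5 dark cell markers passed the adjusted p alone, with sums of 46007 to 51489 and 31988 to 38877. No marker of melanocytes, macrophages, striated muscle, red blood cells, fibroblasts or osteoblasts passed. Of the 7 striated muscle markers, Myh7 and Ckm were at 0 or close to it in every library, and only Myh4 had a mean of at least 10, at 44.8, 137 and 481 normalised counts in Control and 276, 324 and 549 in STREP (log2 fold change 0.79 ± 0.93, SE). The part of these markers in the results that follow was not tested, and in whole tissue fewer cells of a type and less RNA per cell cannot be told apart.

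No respiratory chain subunit passed the test. With DESeq2, 0 of the 98 members tested were called lower and 0 higher at an adjusted p under 0.05 and a fold change over 1.5, where 1.37% of all genes tested were called lower and 1.87% higher. Without the fold criterion the counts were again 0 and 0, against 1.62% and 2.10% of all genes. The lowest adjusted p of any member was 0.308, for Cox6a2, a row with a mean of only 4.92 normalised counts. Among members with a mean of at least 10 the lowest was 0.315, for Uqcrh. At an unadjusted p under 0.05, 3 of 83 measured nuclear members were lower and 0 higher (3.61% lower, against 5.72% lower and 6.85% higher among all genes). With edgeR without a filter 4 of all members reached that level, which was not counted over all genes in that fit. None of the 13 mitochondrial members did so with DESeq2.

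What the nuclear members shared was a small displacement below 0. Their fold change of STREP over Control was below 0 on the log2 scale in 74 of 83 (89.2%, against 49.1% of all measured genes), with a median of -0.14 against 0.0057 over all measured genes. They ranged from -0.60 to 0.75, and both ends of that range were rows with means under 100. For 57 of the 83 (68.7%) the 95% interval of the fold change lay inside 1.5-fold in both directions, compared with 40.7% of all measured genes, so that a change beyond that size was outside the interval for most. All STREP animals were below all Control animals in 13 (15.7%, against 8.83% of all genes) and above them in 1 (1.20%, against 9.41%). Subunits of one complex are not independent measurements, and no test was made of the list.

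**Figure D1:**
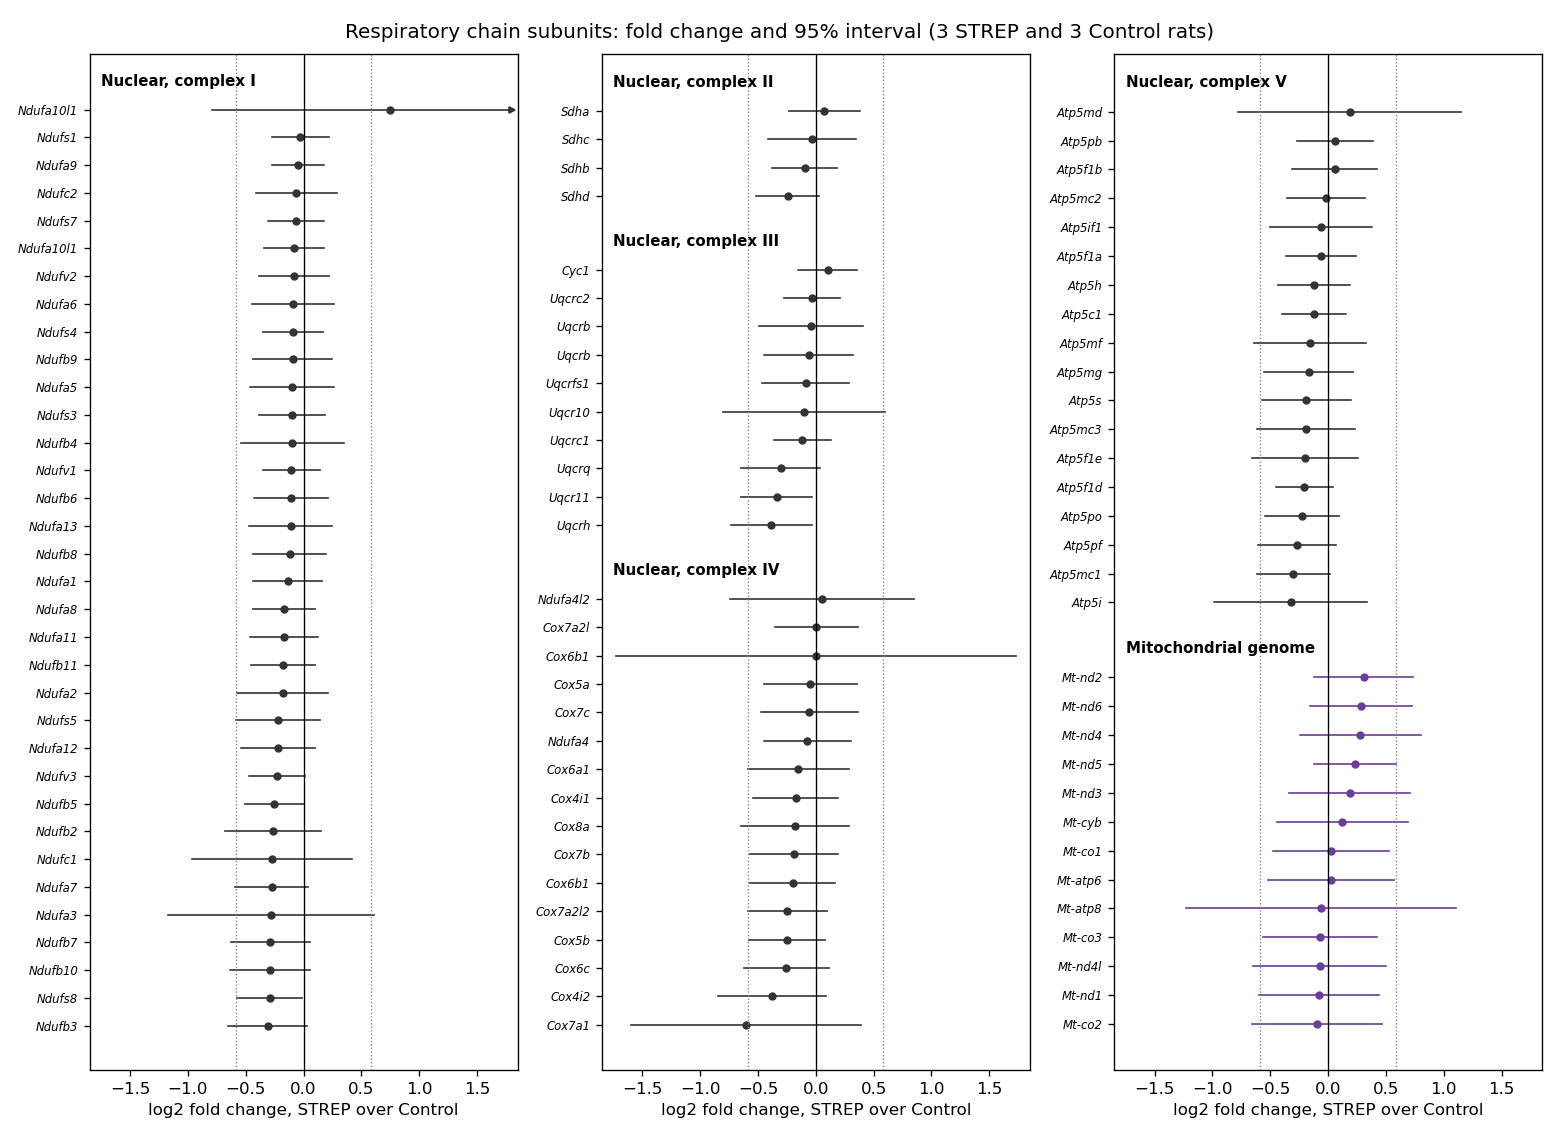
Log2 fold change of STREP over Control (point) with its 95% Wald interval (line) for 95 of the 96 measured members, nuclear members by complex in black and mitochondrially encoded members in purple. The dotted lines mark 1.5-fold, an arrow marks an interval that runs past the axis, and most nuclear points sit a little left of 0 (74 of all 83) while the mitochondrial points spread to both sides (5 of 13 left of 0).

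Complex I, the NADH dehydrogenase, had 35 measured nuclear members, of which 34 lay below 0 (median -0.14). The 7 core subunits, which carry the flavin and the iron-sulphur clusters, had a median of -0.099 and the 28 accessory rows one of -0.17. Ndufv1, the flavin subunit, had 7329, 8293 and 7563 normalised counts in the Control animals, always given in replicate order with the female last, and 6646, 7234 and 7643 in the STREP animals (log2 fold change -0.11 ± 0.13, SE), and the groups overlapped.

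Ndufs1, the largest core subunit, lay highest among the nuclear members of complex I with a mean over 100, at 5539, 5924 and 4967 in Control and 5413, 5314 and 5396 in STREP (log2 fold change -0.027 ± 0.13). Ndufb3, an accessory subunit of the membrane arm, lay lowest, at 2145, 2115 and 2560.2 in Control and 1551, 1767 and 2177 in STREP. Its STREP female fell among the Controls, and its log2 fold change of -0.31 ± 0.18 did not pass (DESeq2 adjusted p = 0.496). The core subunit Ndufs8, singled out after its values were seen because its unadjusted p was 0.0413, had 3209, 3164 and 3763 in Control and 2524, 2809 and 2941 in STREP (log2 fold change -0.29 ± 0.14, DESeq2 adjusted p = 0.373). Its groups did not overlap, as was also the case for Ndufa7, Ndufa9, Ndufb5, Ndufb7 and Ndufv3. For Ndufa9 that separation went with a log2 fold change of only -0.051. The 1 row that did not overlap upwards was the second row of Ndufa10l1, at 12 to 15 normalised counts in Control and 15 to 30 in STREP, whose main row had 4708 to 5638 in Control and 4787 to 5111 in STREP.

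Complex II, the succinate dehydrogenase, had no member whose groups were separate. Sdha, its flavoprotein, had 14875, 16636 and 14741 normalised counts in Control and 16448, 13377 and 18896 in STREP, with the highest and the lowest of the 6 values both in STREP animals (log2 fold change 0.075 ± 0.16). Sdhc, a membrane anchor, had 9178, 11282 and 10759.6 in Control and 8946, 8129.9 and 13448 in STREP (-0.033 ± 0.20). The other anchor, Sdhd, lay lowest of the complex at 4688, 5136 and 4413 in Control and 3834, 4462 and 3717 in STREP (-0.24 ± 0.14, DESeq2 adjusted p = 0.506). The iron-sulphur subunit Sdhb stood at -0.097 ± 0.14, and for all 4 subunits the 95% interval lay inside 1.5-fold.

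Complex III, the cytochrome bc1 complex, had 10 measured nuclear rows. Cyc1, cytochrome c1, had 6839, 6677 and 6859 normalised counts in Control and 6805, 6878 and 8175 in STREP and was the only one of them above 0 (log2 fold change 0.10 ± 0.13). Uqcrfs1, the Rieske iron-sulphur protein, was at -0.088 ± 0.19. Uqcrc1, a core subunit without redox centre, had 12484, 14760.1 and 13271 and 12318, 11834 and 13236 (-0.12 ± 0.13).

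The small subunits of complex III held its lowest values. Uqcrh, the hinge protein that binds cytochrome c1, had 912, 814 and 1050.1 in Control and 666, 731 and 727 in STREP, with no overlap (log2 fold change -0.39 ± 0.18, unadjusted p = 0.0301, DESeq2 adjusted p = 0.315). Uqcr11, named for its unadjusted p of 0.0319 after its values were seen, had 1909, 1759 and 2149 and 1495, 1397 and 1705, again with no overlap (-0.34 ± 0.16, DESeq2 adjusted p = 0.325). Uqcrq was the other row of the complex whose groups were separate (-0.30 ± 0.17). Uqcrb, listed in 2 rows that may share reads, had log2 fold changes of -0.043 and -0.062.

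Complex IV, cytochrome c oxidase, had the lowest nuclear median, -0.18, with 13 of 16 measured rows below 0. That median ran from -0.32 without STREP replicate 3 to -0.043 without STREP replicate 2, where complex I had the lower one (-0.14). Cox8a, its most counted nuclear member, had 8708, 9262 and 11898 normalised counts in Control and 7711, 6154 and 12492 in STREP (log2 fold change -0.18 ± 0.24). Cox4i1, the common isoform of Cox4, had 7789.7, 8649 and 10084 in Control and 6546, 6962 and 10019.6 in STREP (-0.17 ± 0.19). In both genes the STREP males were below all Controls and the STREP female was near the Control female. Cox7a2l, a factor that joins complexes III and IV into supercomplexes, lay highest of the nuclear complex IV members with a mean over 100, at 0.0053 ± 0.18. Its sign turned with library totals as size factors (-0.044).

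Several complex IV subunits have isoforms that are limited to certain tissues or conditions. Cox4i2, the isoform of Cox4 linked to low oxygen, lay lowest of the nuclear complex IV members with a mean over 100. It had 356, 377 and 295 in Control and 261, 289 and 238 in STREP (log2 fold change -0.38 ± 0.24, DESeq2 adjusted p = 0.573). The groups did not overlap for it or for the muscle and heart isoform Cox7a1, at 60.8, 53.6 and 67.1 and 51.9, 30.2 and 37.4 (-0.60 ± 0.51). Cox6a2, the muscle and heart isoform of Cox6a, had 7, 16 and 12 raw counts in Control and 1, 0 and 0 in STREP libraries, the latter under the floor. Cox8b had 9, 2 and 3 raw counts against 2, 0 and 0. The testis isoform Cox6b2 had 5, 3 and 10 normalised counts against 21, 10 and 1. The rows of Cox7b2, Cox8c and Cox6c-ps1 were at 0 in every library, and Cox7a2 was not analysed here.

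Within an animal the ratio between isoforms cancels the size factor, except in rows near 0, where the pseudocount of 1 decides it. Over 6 pairs, the log2 ratio of Cox6a2 to Cox6a1 was -9.48 ± 0.67 (SD, 3 animals) in Control and lower in every STREP animal (exact two-sided permutation p = 0.1, below which 3 against 3 cannot go), where it rested on the pseudocount and the level of Cox6a1. The ratio of Cox4i2 to Cox4i1 was -4.68 ± 0.35 and -4.87 ± 0.45 (SD, 3 animals each, exact permutation p = 0.5), with overlapping groups. For Cox6b2 to Cox6b1, Cox8b to Cox8a, Atp5mc1 to Atp5mc3 and Atp5mc2 to Atp5mc3 the groups overlapped (exact permutation p = 0.7, 0.3, 0.6 and 0.4). Of the partner genes, Cox6a1 had 6044, 6620.5 and 7948 normalised counts in Control and 5706, 4392 and 8441 in STREP (-0.15 ± 0.22), and the main row of Cox6b1 stood at -0.20 ± 0.19.

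Complex V had 15 of its 18 nuclear rows below 0, with a median of -0.16. The catalytic head contains the most counted nuclear members, Atp5f1b (the beta subunit) and Atp5f1a (the alpha subunit). Atp5f1b had 52011, 60558 and 63280.3 normalised counts in Control and 57189, 47344 and 78376 in STREP (0.057 ± 0.19), and Atp5f1a had 26647, 29723 and 31182 and 26882, 23718 and 33164 (-0.064 ± 0.16). For both, the highest and the lowest library were STREP animals, a female and a male. The delta subunit Atp5f1d was the head member whose groups were separate (-0.20 ± 0.13).

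In the stalk, Atp5pb lay highest of the members of complex V with a mean over 100, at 4997, 5517 and 5794 and 5091, 4906 and 6998 (0.059 ± 0.17). Atp5i, a small membrane subunit at the dimer interface, lay lowest, at 242, 223 and 353 and 210.4, 148 and 296 (-0.32 ± 0.34, groups overlapping). The c ring, through which protons pass, is made of identical mature proteins from 3 genes. Of these, Atp5mc1 had 2387, 2249 and 2351 in Control and 1592, 1884 and 2191 in STREP without overlap (-0.30 ± 0.16, DESeq2 adjusted p = 0.447). Atp5mc2 (-0.019 ± 0.17) and Atp5mc3 (-0.19 ± 0.22) overlapped.

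The displacement was not the same in each animal. The median over the 83 nuclear members, relative to the Control mean on the log2 scale, was -0.096, -0.066 and 0.13 in the Control animals and -0.27, -0.23 and 0.061 in the STREP animals. Both STREP males were below every Control and the STREP female was above both Control males. This order depended on the scaling: as a share of all library counts, the summed nuclear members were lowest in the STREP female (0.853%), compared with 0.976% in the Control female, while the STREP males had 0.862% and 0.936%. In each male STREP library 78 of 83 members were under the Control mean, compared with 36 in the STREP female, 10 in the Control female and 65 and 53 in the Control males. Of all 14957 measured genes, 7549 to 7685 were under it in each library. Within sexes, 77 of 83 were lower in the STREP males by their means (median -0.19) and 54 of 83 in the STREP female (median -0.091). Of the 14957 measured genes, 7547 were lower in the males and 7267 in the female. A sex by treatment interaction, which rested on a single pair of females, passed in 0 of the members, against 0.259% of all genes tested. With sex as a covariate, 10 members had an unadjusted p under 0.05. This level was not counted over all genes in that fit, so the 10 cannot be set against a background share. The lowest adjusted p of a member was then 0.162.

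In each of the 5 complexes, too, both STREP males were below every Control and the STREP female above both Control males. In complexes II and V the STREP female was also above the Control female. The 4 subunits of complex II had medians of -0.12, 0.11 and -0.0083 in Control and -0.19, -0.19 and 0.17 in STREP animals. Without STREP replicate 3, the female, the nuclear median was -0.26 and 79 of 83 members were below 0, against 50.2% of all measured genes. In that fit 25 members had an unadjusted p under 0.05. This level was not counted over all genes, so the 25 cannot be set against a background share. Only 1 member, the stalk subunit Atp5po, passed the adjusted p, without reaching 1.5-fold (log2 fold change -0.40, DESeq2 adjusted p = 0.0387). Of the 16109 genes tested there, 471 passed both criteria. Without Control replicate 3, also a female, the median was -0.056 with 62 of 83 below 0, against 48.5% of all measured genes. As shares of the summed nuclear counts, complexes I to V made up 28.7% ± 0.6, 9.49% ± 0.69, 10.5% ± 0.4, 14.1% ± 0.9 and 37.3% ± 0.5 in Control and 27.9% ± 2.4, 9.92% ± 0.29, 10.6% ± 0.4, 13.4% ± 1.1 and 38.2% ± 1.8 in STREP animals (SD, 3 animals each). Every one of these shares overlapped between groups.

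**Figure D2:**
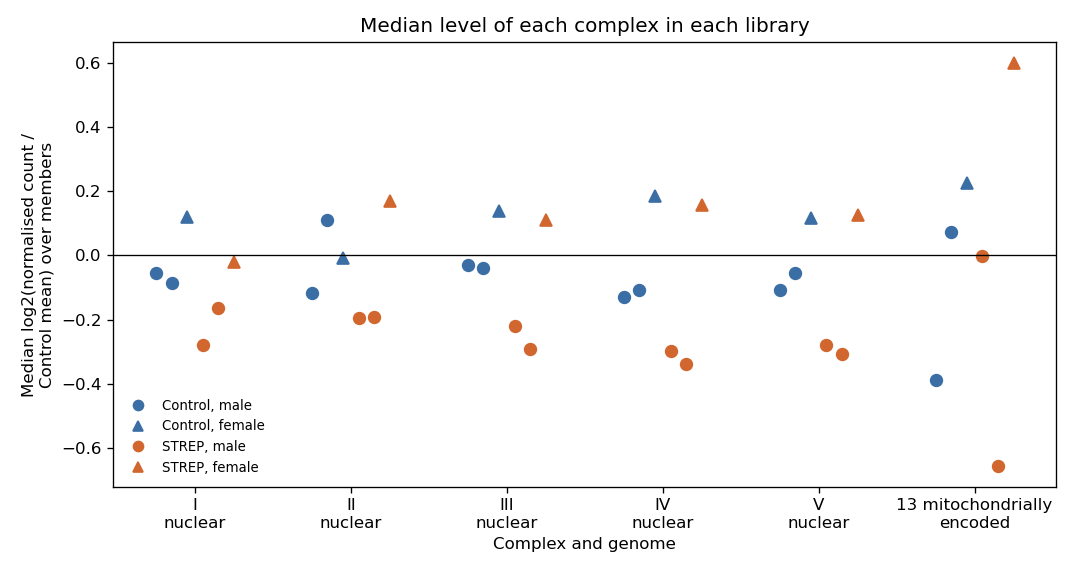
Median over the measured members of each complex of the log2 ratio of normalised count to Control mean, 1 symbol per library (circles males, triangles females, blue Control, orange STREP). In complexes III, IV and V both STREP males lie below all Control libraries and the STREP female near the Control female, while the mitochondrially encoded members spread from -0.66 to 0.60 within STREP alone.

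The 13 mitochondrially encoded mRNAs moved by library more than by treatment. Their median log2 fold change was 0.026, from -0.094 for Mt-co2 to 0.31 for Mt-nd2, and for all 13 the groups overlapped. Relative to the Control mean, the median over the 13 was -0.39, 0.072 and 0.23 among Control animals. Among STREP animals it was -0.00023, -0.66 and 0.60. The 95% interval lay inside 1.5-fold for 4 of 13 (30.8%), and for the rest it reached beyond that size.

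Cytochrome b of complex III, Mt-cyb, shows the pattern, with 268544, 418897 and 430292 normalised counts in Control and 372517, 225117 and 618026 in STREP (0.12 ± 0.29). Mt-co1, the catalytic subunit of complex IV, had 278997, 393174 and 412094 and 305494, 250393 and 548121 (0.026 ± 0.26). Mt-atp6, the proton channel subunit of complex V, had 388039, 555639 and 586869.5 and 463457, 302806 and 790903 (0.025 ± 0.28). In these genes STREP replicate 2 was lowest and STREP replicate 3 highest of all libraries.

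The 7 mitochondrial subunits of complex I had a median of 0.23, those of complex IV one of -0.070 and those of complex V one of -0.017. Mt-nd2, a proton pumping subunit, had 160133, 212198 and 233177 in Control and 239902, 178847 and 331393 in STREP (0.31 ± 0.22, DESeq2 adjusted p = 0.668). Mt-nd4 stood at 0.28 ± 0.27, Mt-nd5 at 0.23 ± 0.18 and Mt-nd6, the subunit encoded on the light strand, at 0.29 ± 0.23. Mt-nd3 (0.19 ± 0.27), Mt-nd1 (-0.076 ± 0.27) and Mt-nd4l (-0.074 ± 0.29) lay on either side of 0. Below 0 were also Mt-co3 (-0.070 ± 0.25), Mt-co2 (-0.094 ± 0.29) and Mt-atp8 (-0.058 ± 0.60). The library protocol does not mark strand, and Mt-nd4l, Mt-atp8 and Mt-nd6 overlap or lie opposite other mitochondrial transcripts, so their counts are uncertain.

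This spread between libraries was shared with other abundant transcripts. STREP replicate 3 was the highest of the 6 libraries for 11 of the 13 mitochondrial mRNAs and for 11 of the 12 nuclear rows among the 20 with the highest mean, which include Apoe and Coch. STREP replicate 2 was the lowest of the STREP libraries for all 13 and for all 12. Total counts divided by the size factor were 36764224, 41287282 and 42139902 in Control and 39054429, 34349478 and 50479085 in STREP libraries, in the same order as the mitochondrial medians. Among the nuclear subunits, 23 of 83 were highest in STREP replicate 3. The part of this ordering in the fold changes was not tested. Without STREP replicate 3 the mitochondrial median was -0.33, and without STREP replicate 2 it was 0.30.

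Taking each mRNA as a share of the summed counts of the 13 removes only what a library does equally to all of them. The shares also depend on each other, since a rise in some lowers the rest. On this scale 3 of 13 had separate groups. Mt-nd2 made up 8.39%, 7.63% and 7.89% in Control and 9.99%, 10.8% and 8.53% in STREP animals. In each group its share was highest in the library with the lowest mitochondrial median, Control replicate 1 and STREP replicate 2. Mt-nd4 made up 7.24%, 7.55% and 6.58% in Control and 8.13%, 8.11% and 8.46% in STREP animals. Both were higher in all STREP animals, by 0.29 and 0.21 on the log2 scale. Mt-co2, the subunit of complex IV that receives electrons from cytochrome c, made up 6.87%, 6.59% and 7.10% in Control and was lower in all STREP animals at 6.05%, 5.61% and 6.51% (-0.18 on the log2 scale).

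For each of the 3 the exact two-sided permutation test gave p = 0.1, the least that 3 animals against 3 can give, and they were picked out of 13 after the values were seen. Divided in the same way by the summed mitochondrial mRNA, 1.98% of all measured genes had all STREP animals below all Controls and 2.44% above. On the normalised scale these were 8.83% and 9.41%. That sum varied between libraries, so dividing by it adds spread to other genes while it removes shared spread from the 13 mRNAs. The 1.98% and 2.44% are therefore no background for the 3 of 13. The differences of Mt-nd2 and Mt-co2 ranged from 0.21 to 0.38 and from -0.23 to -0.13 when each animal was left out in turn, and that of Mt-nd4 from 0.16 to 0.25. The largest shares, Mt-atp6 (20.1% ± 0.2 in Control and 19.3% ± 1.0 in STREP), Mt-nd1 (19.3% ± 1.1 and 17.9% ± 0.7), Mt-cyb (14.6% ± 0.5 and 15.0% ± 1.2) and Mt-co1 (14.2% ± 0.3 and 14.0% ± 1.2), overlapped between groups (SD, 3 animals each).

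**Figure D3:**
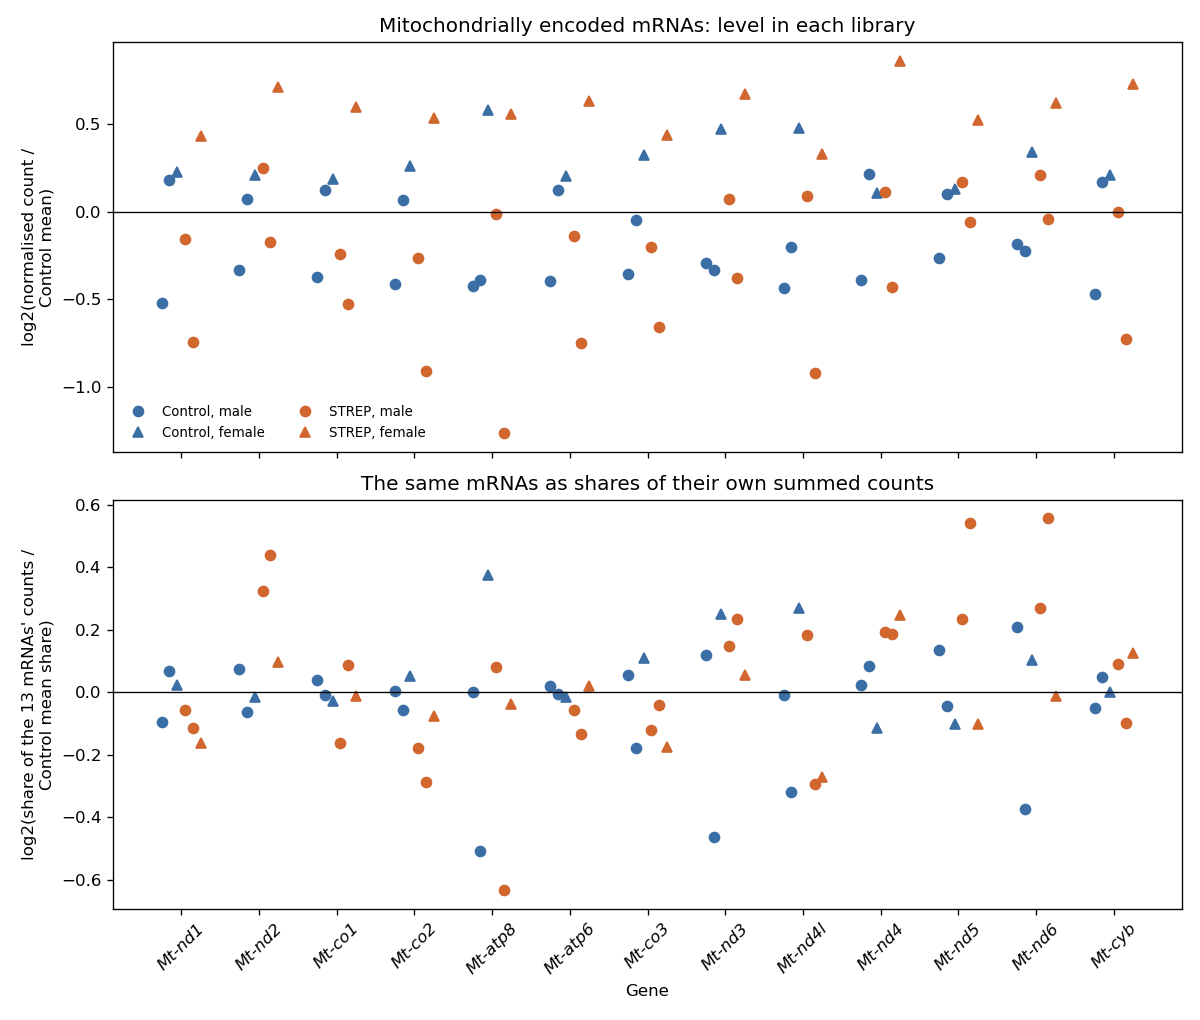
Each of the 13 mitochondrially encoded mRNAs in each library, 1 symbol per library (circles males, triangles females, blue Control, orange STREP). The upper plot shows the log2 ratio of normalised count to Control mean, where STREP libraries lie at both extremes, and the lower plot the log2 ratio of the mRNA's share of the 13 to its mean Control share, where Mt-nd2, Mt-nd4 and Mt-co2 separate the groups.

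Set against each other, the mitochondrial and the nuclear pools did not part between groups beyond the spread. The 13 mitochondrial mRNAs held 5.19%, 6.74% and 7.01% of all counts in Control and 6.15%, 4.82% and 7.70% in STREP libraries. The nuclear members held 0.969%, 0.939% and 0.976% in Control and 0.862%, 0.936% and 0.853% in STREP libraries. All STREP shares were below all Control shares, though STREP replicate 2 nearly met Control replicate 2. The log2 ratio of the first to the second was 2.70 ± 0.24 in Control and 2.79 ± 0.41 in STREP animals (SD, 3 animals each), a difference of 0.089 that ran from -0.10 without STREP replicate 3 to 0.30 without STREP replicate 2.

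The mitochondrial genome also gives 2 ribosomal RNAs, which form the mitochondrial ribosome with nuclear proteins and are not subunits. Their rows, AY172581.9 and AY172581.24, were read although priming was with oligo-dT. Per count of mitochondrial mRNA, there were 0.431, 0.372 and 0.395 rRNA counts in Control and 0.509, 0.507 and 0.549 in STREP libraries. The means were 0.399 ± 0.030 and 0.522 ± 0.023 (SD, 3 animals each) and the groups did not overlap. This ratio was not a planned measure and was not tested, and 3 animals against 3 cannot give an exact permutation p below 0.1. The log2 difference stayed between 0.34 and 0.44 when each animal was left out in turn. On the scale of the plain ratio, the difference was 0.122 over all animals, 0.107 between the male means and 0.154 in the female pair. Nearly all of the rRNA counts were in AY172581.24, whose level on the normalised scale did not pass (log2 fold change 0.47 ± 0.27, DESeq2 adjusted p = 0.506). The 22 mitochondrial tRNA rows were at 0 in every library.

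**Figure D4:**
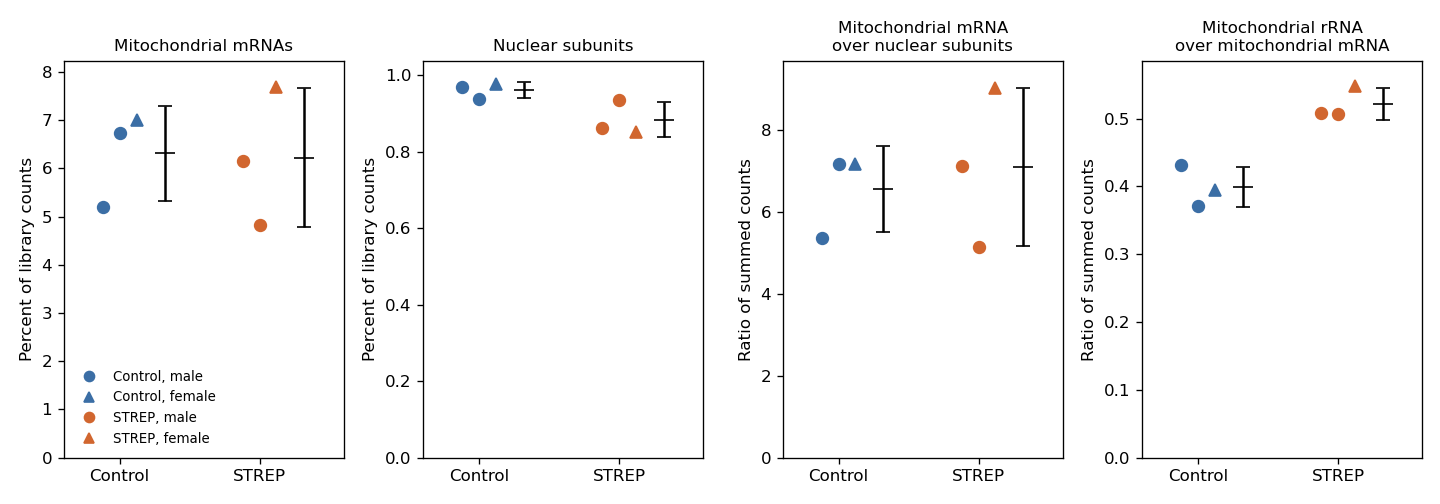
Shares of library counts held by the 13 mitochondrial mRNAs and by the nuclear subunits, the ratio of the first to the second, and the ratio of mitochondrial rRNA to mitochondrial mRNA, 1 symbol per library (circles males, triangles females) with mean ± SD in black. The mitochondrial mRNA share and the ratio of the pools overlap between groups, and the rRNA ratio runs from 0.372 to 0.431 in Control and from 0.507 to 0.549 in STREP.

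Of the other mitochondrial genes examined beside the subunits, 3 of 165 tested were called and all were higher in STREP animals (1.82%, against 1.87% of all genes called higher). Hspa9, the mitochondrial HSP70 chaperone that imports and folds proteins, had 8112, 8254 and 7899 normalised counts in Control and 14280.5, 11229.7 and 13874 in STREP (log2 fold change 0.70 ± 0.14, DESeq2 adjusted p = 3.64e-05). Grsf1, an RNA-binding protein of the mitochondrial RNA granules where mitochondrial transcripts are processed, had 4196, 2441 and 3338 and 5459, 5828 and 6226 (0.81 ± 0.19, DESeq2 adjusted p = 0.00178). Coq10a, which binds ubiquinone, the electron carrier between complexes I or II and III, had 688, 412 and 717 and 1221, 1012 and 1131 (0.89 ± 0.23, DESeq2 adjusted p = 0.00701). For all 3 the groups were separate, but the calls of Grsf1 and Coq10a were lost with library totals as size factors (DESeq2 adjusted p = 0.0670 and 0.0778) and with edgeR with a count filter (adjusted p = 0.0541 and 0.0729). That of Coq10a was also lost without STREP replicate 1 (DESeq2 adjusted p = 0.0938) and with edgeR without a filter (adjusted p = 0.0538).

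The lists these genes came from did not move as a whole. Proteostasis had 1 of 17 called and a median of 0.00032, mitochondrial gene expression 1 of 27 and 0.020, and the mobile carriers with ubiquinone synthesis 1 of 20 and -0.076. The assembly factors of the complexes had 0 of 42 called with 17 below 0 and a median of 0.022, compared with 74 of 83 below 0 for the nuclear subunits, a difference that was not tested. The regulators of biogenesis (0 of 17, median 0.14), the TCA cycle with pyruvate dehydrogenase (0 of 23, -0.011) and the outer membrane and carriers (0 of 18, -0.029) had no call either.

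Glycolysis, the pathway that feeds pyruvate to the mitochondrion, had 16 of 19 genes below 0 and a median of -0.26, and 2 passed the adjusted p alone, without reaching 1.5-fold. Eno1, enolase, had 40499, 45949.9 and 46548 in Control and 27712, 25600.1 and 37543 in STREP (-0.55 ± 0.17, DESeq2 adjusted p = 0.03). Pfkl, a phosphofructokinase, had 9846, 9601 and 8757 and 6786, 6297 and 7862 (-0.43 ± 0.14, DESeq2 adjusted p = 0.0476). Both were named after their values were seen, and in both all STREP animals were below all Controls, as in 7 of the 19 genes (8.83% of all measured genes). Eno1 went past 1.5-fold as well with library totals as size factors (log2 fold change -0.59), with males alone (-0.70), without Control replicate 1 (-0.62) and without STREP replicate 3 (-0.73). The difference between this list and the subunits was not tested.

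**Figure D5:**
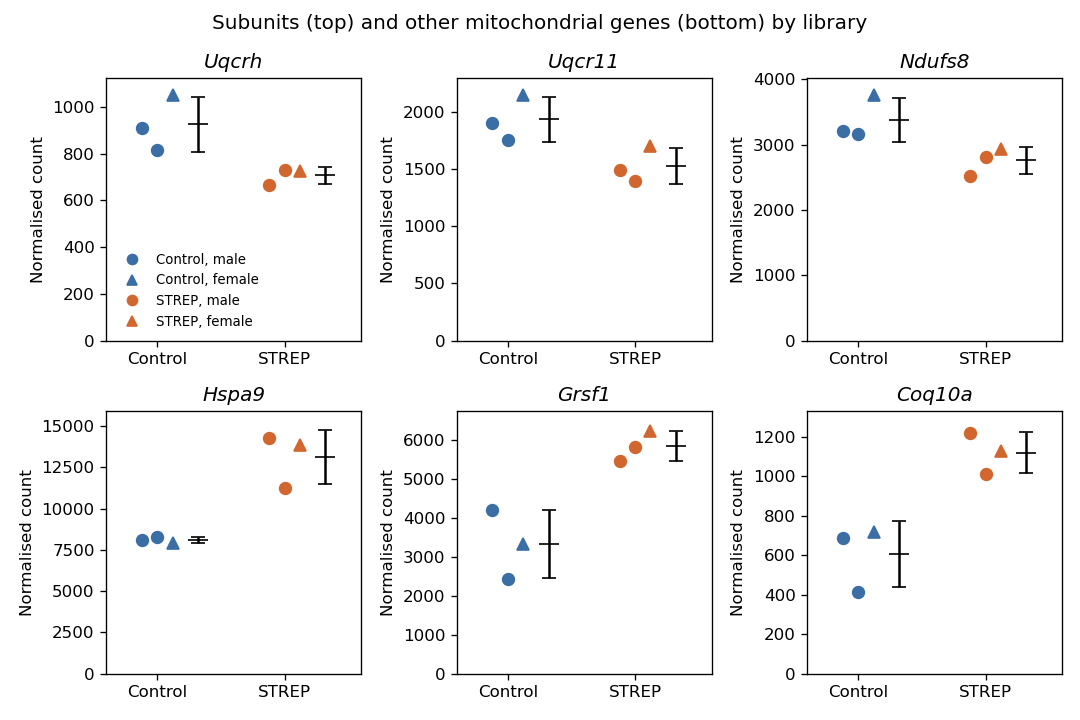
Normalised counts by library for 3 subunits with an unadjusted p under 0.05 (Uqcrh, Uqcr11 and Ndufs8) and for the 3 called genes of the other mitochondrial lists (Hspa9, Grsf1 and Coq10a), with mean ± SD in black (circles males, triangles females, blue Control, orange STREP). In all 6 genes the groups are separate, the subunits lower and the others higher in STREP. The 3 subunits are shown because of that unadjusted p, and none passed the test (DESeq2 adjusted p = 0.315, 0.325 and 0.373).

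Nuclear subunit genes are known for short promoters that share binding sequences of NRF1, of ETS factors such as GABP, and of YY1. Of the 83 measured rows, 69 symbols had a promoter in RefSeq (build GRCr8, 250 bases before to 50 after the start). The letters GCATGCGC (the core of the NRF1 sequence) were in 8 of the 69 (11.6%) and in 2.66% of all 27457 promoters on either strand. CCGGAAGT (ETS) was in 8 (11.6% against 4.01%) and AAGATGGC (YY1) in 15 (21.7% against 3.44%). The 26 genes with any of these had a median log2 fold change of -0.14 and those without one of -0.17. For each complex, the stretch is shown where such a motif lay nearest before the start site (NRF1 first, then ETS), with up to 40 bases on either side and the motif in capitals. Overlapping matches on both strands make the longer runs of capitals in Ndufa11 and Atp5mc2. The stretches lie at chr9:1637485-1637572 (Ndufa11, plus strand), chr5:158547727-158547814 (Sdhb, plus strand), chr8:118468144-118468222 (Uqcrc1, plus strand), chr9:46417783-46417836 (Cox5b, plus strand) and chr7:135678225-135678312 (Atp5mc2, minus strand).
Ndufa11: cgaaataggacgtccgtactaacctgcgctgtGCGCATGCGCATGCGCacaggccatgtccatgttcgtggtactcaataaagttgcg
Sdhb: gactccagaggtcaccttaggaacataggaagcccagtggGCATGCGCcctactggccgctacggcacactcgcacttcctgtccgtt
Uqcrc1: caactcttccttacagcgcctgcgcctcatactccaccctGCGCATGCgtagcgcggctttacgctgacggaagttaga
Cox5b: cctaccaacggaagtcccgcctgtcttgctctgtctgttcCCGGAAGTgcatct
Atp5mc2: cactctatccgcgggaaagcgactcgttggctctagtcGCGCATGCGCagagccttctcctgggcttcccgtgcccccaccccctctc
Cox5b holds the ETS letters and the other 4 the NRF1 letters. A match is a description of the letters and no measure of binding. None of these 5 genes was among those whose groups were separate, with log2 fold changes of -0.17 ± 0.15 for Ndufa11 and -0.25 ± 0.17 for Cox5b beside those given above.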

How the data were processed

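Expected counts per gene were deposited by the authors, who aligned the reads with STAR 2.5.3a and quantified them with RSEM 1.3.0 (versions per the labels) against Rnor6.0, without scaling between libraries. All values were whole numbers, so rounding changed nothing, and all 6 columns were used (0 were left out). Expected counts divide reads among similar sequences. RefSeq lists 93 pseudogenes of 40 of the 86 nuclear member symbols, and 4 member symbols have 2 rows, so values of such genes are uncertain. Transcript lengths were not used here, so ranks by count and isoform ratios are not levels per length.

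Counts of all genes were fitted in R 4.3.3 with DESeq2 1.42.0 (group as the factor, Wald test, Benjamini-Hochberg adjustment over all genes, independent filtering at 0.05). A gene was called at an adjusted p under 0.05 and a fold change over 1.5. Replicates were separate animals, numbered in deposition order, and the labels gave 1 batch. Members, lists and rules were chosen with earlier results of these data known. Named genes were every mitochondrial member, the 2 most counted and the lowest and highest (mean at least 100) nuclear members of each complex, isoform pairs (pseudocount of 1), and called genes of the other lists. The values of 1 nuclear member are not reported here, though it is in the counts and medians. Counting floors cover counting error only. Alternatives used edgeR 4.0.16 (quasi-likelihood), other filters and scalings, sex as a covariate, males alone, and each animal left out. The procedure was tested on simulated data with counts drawn independently for each gene. These held neither spread shared between genes nor small joint shifts, so the test does not cover such patterns.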

Additional observations from a re-analysis of the deposited data

How the results depend on the processing

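The counts of members called lower or higher stayed at 0 under edgeR with and without a filter, a count filter, other scalings, sex as a covariate, males alone and each animal left out. Members past the adjusted p alone and lower ranged from 0 to 1 when each animal was left out. The calls among the other mitochondrial lists and glycolysis were 1 with edgeR with a count filter, compared with 3, and ranged from 2 to 6 when each animal was left out, the glycolysis genes Eno1, Aldoa and Ldhb being added without STREP replicate 3 (log2 fold change -0.73, -0.62 and -0.60). Over the animals left out, the nuclear medians ranged from -0.23 to -0.088 in complex I, from -0.18 to 0.022 in II, from -0.29 to -0.022 in III, from -0.32 to -0.043 in IV and from -0.27 to -0.024 in V.

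With males alone the sign turned for Atp5f1b (-0.11), Atp5pb (-0.074), Cox7a2l (-0.20), Mt-atp6 (-0.30), Mt-co1 (-0.28), Mt-cyb (-0.20), Mt-nd4 (-0.081) and Sdha (-0.081). Cox7a2l, Mt-atp6 and Mt-co1 were at -0.044, -0.062 and -0.050 with library totals, at -0.032, -0.045 and -0.035 with library totals without mitochondrial genes, and at -0.023, -0.058 and -0.046 with sex as a covariate. Cox7a2l was at -0.0011 with edgeR without a filter. The cause was not tested. With each animal left out, the sign turned for Atp5f1a (-0.21 to 0.038), Atp5f1b (-0.16 to 0.21), Atp5mc2 (-0.19 to 0.089), Atp5pb (-0.12 to 0.15), Cox6a1 (-0.44 to 0.039), Cox6b2 (-0.12 to 1.38), Cox7a2l (-0.22 to 0.12), Cox8a (-0.52 to 0.018), Mt-atp6 (-0.41 to 0.30), Mt-atp8 (-0.51 to 0.35), Mt-co1 (-0.38 to 0.24), Mt-co2 (-0.55 to 0.19), Mt-co3 (-0.41 to 0.15), Mt-cyb (-0.32 to 0.41), Mt-nd1 (-0.42 to 0.17), Mt-nd3 (-0.14 to 0.50), Mt-nd4 (-0.13 to 0.53), Mt-nd4l (-0.33 to 0.24), Ndufs1 (-0.093 to 0.032), Sdha (-0.047 to 0.19) and Sdhc (-0.28 to 0.10), in most cases lowest without STREP replicate 3. Of all values of named genes under the other settings, 316 kept direction and side of the threshold, 18 changed sign and 5 lost a call. With an animal left out, 220 kept both, 37 changed sign and 1 lost a call.

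No paired analysis was possible because the labels carry no replicate numbers shared between the groups. The pair Cox7a1 and Cox7a2 was not run, since Cox7a2 had no row under that symbol. The median SE of the log2 fold change was 0.18 for nuclear and 0.27 for mitochondrial members, which limits what 3 animals a group can show of small changes in single genes.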
